A study of Homo sapiens with 2 samples.

Results

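The integrin and laminin genes form a pair of linked families, the receptors of the extracellular matrix and the main glycoproteins of the basement membrane. Members were taken by gene symbol, as the integrin alpha chains (ITGA and a number or letter), the integrin beta chains (ITGB1 to ITGB8) and the laminin alpha, beta and gamma chains. The table held 38 such genes among 26257 gene symbols: 18 integrin alpha, 8 integrin beta and 12 laminin genes, with 92 isoforms. Of these, 18 genes reached a mean of 1 FPKM over both libraries and are called measured here. FPKM is the estimated number of sequenced fragments, scaled to transcript length and library size, so levels of different genes can be set side by side within a library.

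RNA came from HCT-116, an established human colorectal carcinoma line of epithelial origin. The LPA library was made from serum-starved cells given lysophosphatidic acid (LPA), a signalling phospholipid, at 10 µM for 24 h. The control library was made from HCT-116 cells without LPA, and whether they were also starved is not given in the sources used here. Both libraries hold poly-A RNA and both sample titles carry the number 3. There is 1 library per group, so no difference given has a replicate check, and none has a p-value.

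Each integrin is a pair of 1 alpha and 1 beta chain that spans the plasma membrane, binds matrix outside the cell and connects to the cytoskeleton inside it. ITGB1 pairs with many alpha chains, whereas ITGB4 pairs with ITGA6 alone and anchors hemidesmosomes through intermediate filaments. Each laminin is a trimer of 1 alpha, 1 beta and 1 gamma chain. In gut epithelium, integrins of ITGA3, ITGA6 and ITGB4 bind laminins that contain the α3 or α5 chain. LPA acts through G protein-coupled receptors that can signal to the actin cytoskeleton, to which integrins are attached.

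From the lowest FPKM of genes with a single long isoform, depth was estimated at about 16100000 fragments in the LPA library and 17600000 in the control library. The measured members then rested on about 128 to 6612 fragments in the LPA library and 130 to 7280 fragments in the control library. Of the epithelial markers, EPCAM was at 223 FPKM in the LPA library and 220 FPKM in the control library, and VIL1 was listed at 0 in both. The 7 epithelial markers summed to 3762 FPKM in the LPA library and 2880 FPKM in the control library, the difference lying mostly in the keratin genes KRT8 (1507 FPKM with LPA, 1208 FPKM in control), KRT18 (741 FPKM with LPA, 442 FPKM in control) and KRT19 (1268 FPKM with LPA, 989 FPKM in control). Their part in the other results was not tested. Fibroblast, immune, endothelial and platelet markers summed to 4.32, 3.50, 0.253 and 0.425 FPKM in the LPA library and to 5.78, 3.002, 0.105 and 0.540 FPKM in the control library. In RNA from a whole culture, fewer cells expressing a gene and less RNA per cell cannot be told apart.

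At the level of whole genes, the integrins and laminins differed little between the libraries. No measured member was 1.5-fold higher or lower in the LPA library, where 1.45% of 11688 measured genes were 1.5-fold higher and 1.54% were 1.5-fold lower. When only the leading isoform of a gene was used, ITGA6 was 1.5-fold higher (log2 ratio 0.66) and ITGA2 1.5-fold lower (-1.199). No member's sum passed 2-fold, which 0.351% of measured genes reached upward and 0.205% downward. Differences are given as log2 ratios, log2((LPA FPKM + 1)/(control FPKM + 1)), which understate differences in genes with low FPKM. All 18 ratios lay inside the central 95% of measured genes, from -0.51 to 0.49. The ratio was above 0 in 15 of the 18 members, against 50.2% of measured genes, and the median was 0.11, against 0.00 over all measured genes. After adjustment for GC content and length it was above 0 in 13 of the 18, against 51.0% of measured genes, with a median of 0.07. The median was 0.06 with a pseudocount of 5 FPKM and 0.04 over all 38 members without the filter on low values. With the limit widened to log2 ratios beyond 0.32 in either direction, 1 of 18 members was higher and none was lower, where 8.19% of measured genes were higher and 10.4% lower.

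**Figure D1:**
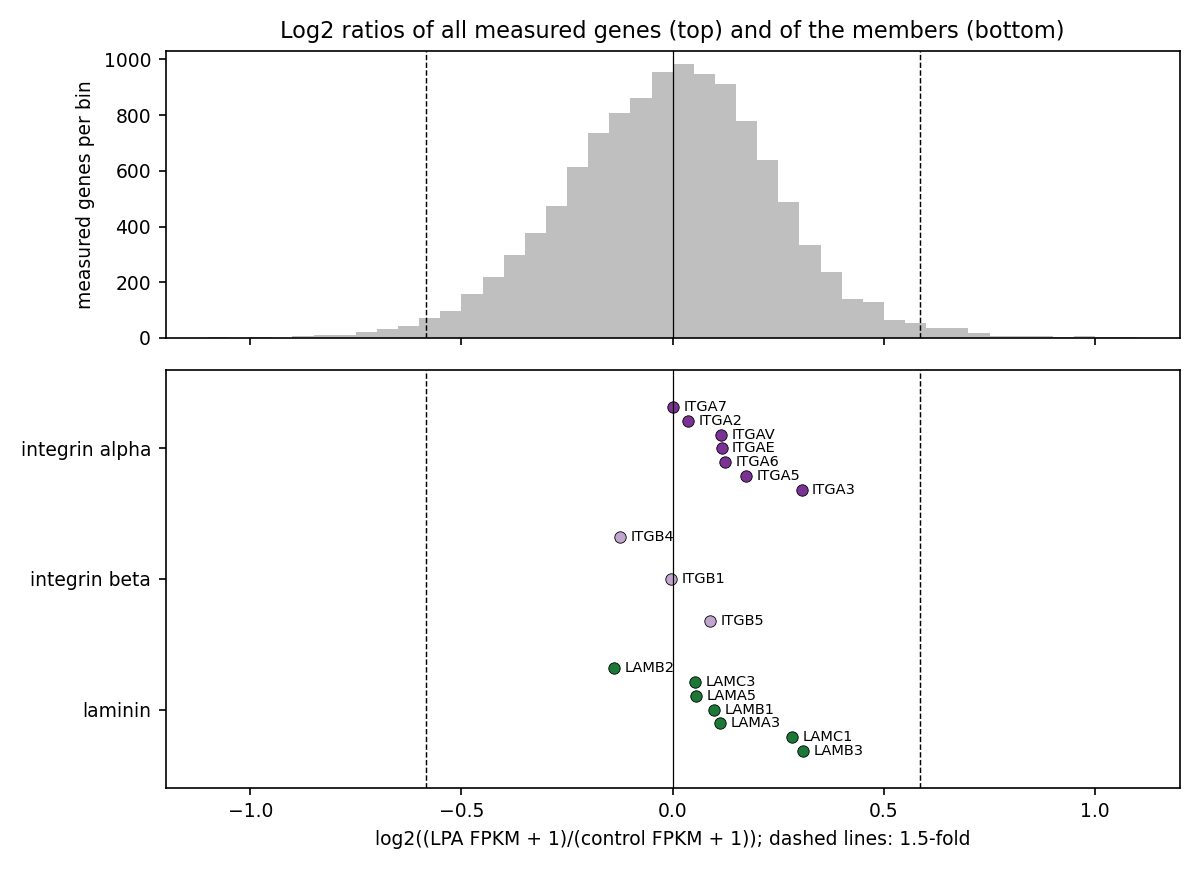
Log2 ratios of the LPA over the control library. The upper panel counts the measured genes in bins of the log2 ratio, and those of the 11688 with ratios beyond the axis are not shown. The lower panel shows measured integrin and laminin genes as points, with dashed lines at 1.5-fold. All plotted members lie between the dashed lines, from -0.14 (LAMB2) to 0.31 (LAMB3).

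Among the integrin alpha chains, ITGA3 was the most abundant by far. ITGA3, on chromosome 17 (50055976 to 50090485, hg38 as for all loci here), encodes a laminin receptor chain that pairs with ITGB1, and it had 64.1 FPKM in the LPA library and 51.7 FPKM in the control library. Its log2 ratio of 0.30 was the highest of the integrins, and 90.8% of measured genes had a lower one. ITGA5, the fibronectin receptor chain on chromosome 12, had 12.7 FPKM in the LPA library and 11.2 FPKM in the control library (log2 ratio 0.17). The annotated locus of ITGA5 also holds ZNF385A, GPR84, GTSF1 and LOC102724050, so it extends beyond the gene. ITGA6, the partner of ITGB4 and of ITGB1 on chromosome 2 (172427586 to 172506453), had 11.99 FPKM in the LPA library and 10.9 FPKM in the control library (log2 ratio 0.12).

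The other measured alpha chains were lower in level, between 2.23 and 5.70 FPKM in the LPA library and between 2.23 and 5.19 FPKM in the control library. ITGAV, the chain of the RGD-binding receptors for vitronectin and latent TGF-beta, had 5.70 FPKM in the LPA library and 5.19 FPKM in the control library. ITGA2, a collagen receptor chain on chromosome 5 (52989326 to 53094779), had 5.28 FPKM in the LPA library and 5.13 FPKM in the control library. ITGAE, whose product on mucosal T cells binds E-cadherin, had 3.91 FPKM in the LPA library and 3.53 FPKM in the control library. Its partner ITGB7 stood at 0.379 FPKM in the LPA library and 0.249 FPKM in the control library. The ITGAE locus also holds GSG2, and the library kit does not mark strand, so reads of the overlapping genes cannot be told apart. ITGA7, a laminin receptor chain of muscle, had 2.23 FPKM in both libraries, and its locus also holds METTL7B.

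The measured beta chains were ITGB1, ITGB4 and ITGB5. ITGB1, on chromosome 10 (32900318 to 32958365), was the most abundant member of all, with 108.2 FPKM in the LPA library and 108.4 FPKM in the control library (log2 ratio -0.0031). ITGB4, on chromosome 17 (75721436 to 75757818), had 42.5 FPKM in the LPA library and 46.4 FPKM in the control library (log2 ratio -0.12), whereas its partner ITGA6 had a ratio above 0. ITGB5, a partner of ITGAV, had 22.8 FPKM in the LPA library and 21.3 FPKM in the control library (log2 ratio 0.09). Per length, ITGB1 had 2.54 times the FPKM of ITGB4 in the LPA library and 2.33 times in the control library. The summed FPKM of all alpha chains was 107.2 in the LPA library and 91.1 in the control library, and that of all beta chains was 174.3 in the LPA library and 176.8 in the control library.

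**Figure D2:**
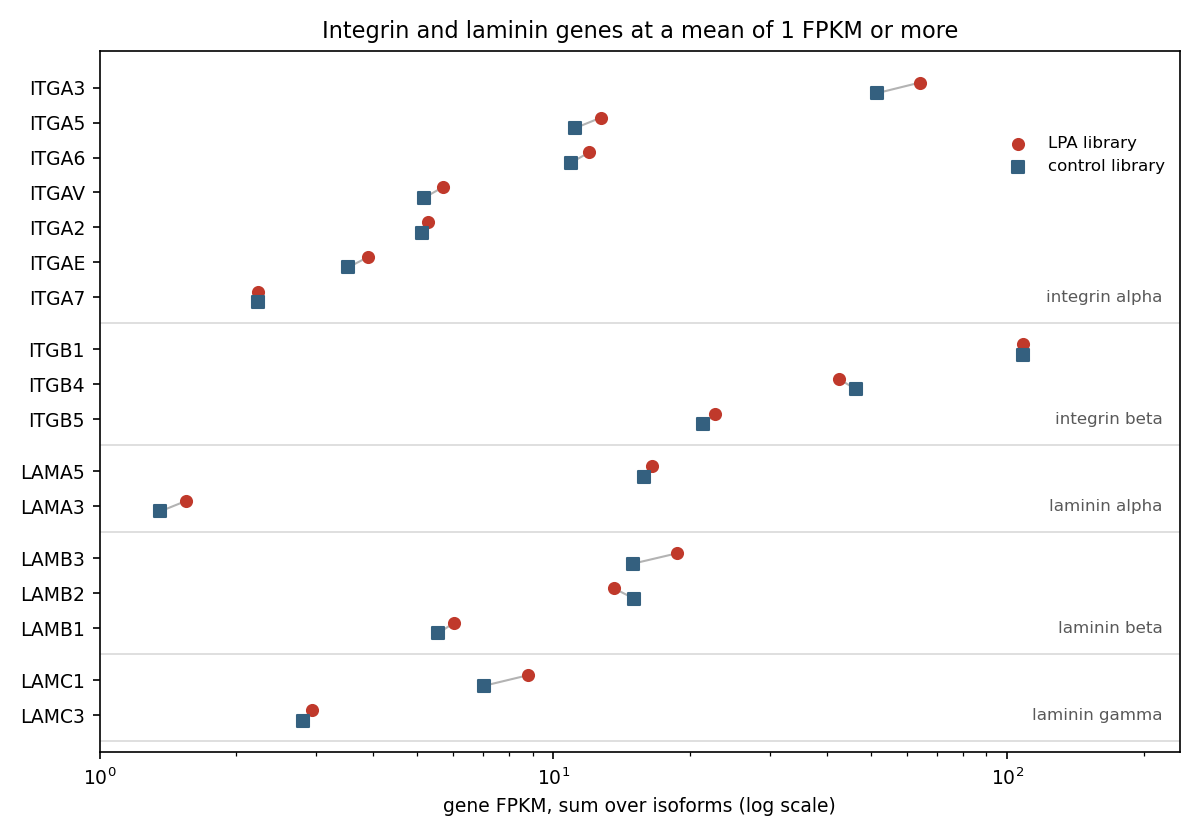
FPKM of measured integrin and laminin genes, summed over its isoforms, on a log axis. Circles are the LPA library and squares the control library, 1 library each. Levels run from 1.36 FPKM for LAMA3 to 108.4 FPKM for ITGB1, and the markers of each gene lie close together.

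Among laminins, 7 of the 8 measured genes had positive log2 ratios, with a family median of 0.11. After adjustment for GC content and length 5 of the 8 were above 0 and the median was 0.03, with LAMA5 at -0.0015 and LAMC3 at -0.0043. It was 0.05 with a pseudocount of 5 FPKM and 0.19 over laminin genes at a mean of at least 5 FPKM. LAMB3, on chromosome 1 (209614873 to 209652475), encodes the β3 chain, which is found with the α3 chain in the laminin that links hemidesmosomes to the basement membrane. It had 18.8 FPKM in the LPA library and 14.96 FPKM in the control library (log2 ratio 0.31), and 91.0% of measured genes had a lower ratio. Its leading isoform alone had a log2 ratio of -0.17. LAMA3, the α3 chain gene on chromosome 18 (23689443 to 23955065), had 1.55 FPKM in the LPA library and 1.36 FPKM in the control library (log2 ratio 0.11). The chain genes LAMB3 and LAMA3 were thus at unequal levels: per length LAMB3 had 12.1 times the FPKM of LAMA3 in the LPA library and 11.01 times in the control library.

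The chains of the α5 laminins, which are widespread in epithelial basement membranes, were measured as well. LAMA5, on chromosome 20 (62309060 to 62367312), had 16.5 FPKM in the LPA library and 15.8 FPKM in the control library (log2 ratio 0.06). Its locus holds LAMA5-AS1 as well, whose reads cannot be told apart without strand. LAMC1, the common γ1 chain gene, lies on chromosome 1 (183023460 to 183145592), and it had 8.79 FPKM in the LPA library and 7.05 FPKM in the control library (log2 ratio 0.28). The β chains that can complete these trimers had ratios of opposite sign. LAMB1 had 6.03 FPKM in the LPA library and 5.57 FPKM in the control library (log2 ratio 0.10), and LAMB2 had 13.6 FPKM in the LPA library and 15.03 FPKM in the control library (log2 ratio -0.14). LAMC3, the γ3 chain gene, had 2.94 FPKM in the LPA library and 2.80 FPKM in the control library.

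The make-up of the integrin families and of the laminin alpha chains was close in both libraries. ITGA3 held 59.8% of the summed alpha chain FPKM in the LPA library and 56.8% in the control library, and ITGB1 held 62.1% of the beta chain FPKM in the LPA library and 61.3% in the control library. LAMA5 held 85.1% of the laminin alpha FPKM in the LPA library and 87.5% in the control library. LAMB3 had the highest level of the laminin beta chains in the LPA library, with a share of 48.9% and LAMB2 at 35.4%. In the control library LAMB3 and LAMB2 were level, at 42.1% and 42.3%. From leading isoforms alone, LAMB3 held 31.8% in the LPA library and 33.6% in the control library, below LAMB2 in both, and ITGB1 held 55.4% and 46.0% of the beta chain FPKM in the LPA and control libraries. The libraries have no replicates, so the spread of these shares between cultures is not known.

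**Figure D3:**
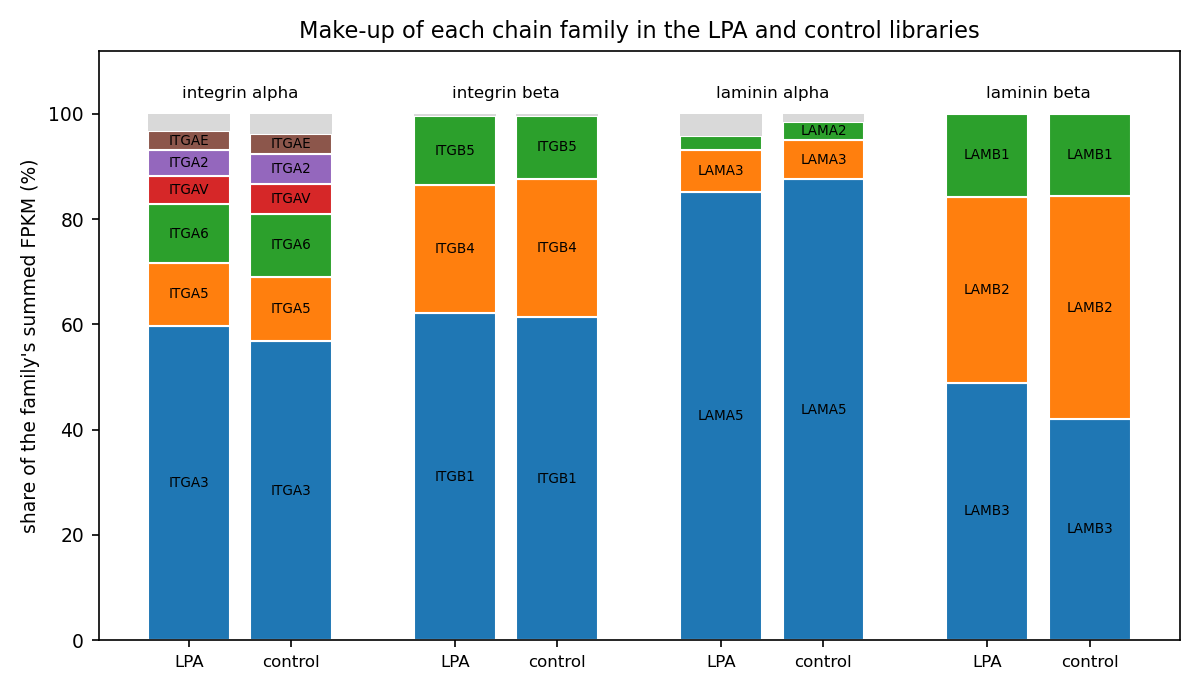
Share of each gene in the summed FPKM of its chain family, in percent, for the integrin alpha and beta and the laminin alpha and beta chains, with the LPA library left of the control library in each pair. Grey stands for the remaining members. In the laminin beta family the share of LAMB3 is 48.9% in the LPA library and 42.1% in the control library.

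The remaining 20 members had a mean below 1 FPKM, and none was above 0.780 FPKM in either library. They included the leukocyte integrin genes ITGAL (0.0117 FPKM in the LPA library and listed at 0 in the control library), ITGAD, ITGAM and ITGAX and their partner ITGB2 (0.0467 FPKM in the LPA library and 0.0583 FPKM in the control library). The platelet receptor genes ITGA2B (0.425 FPKM with LPA, 0.540 FPKM in control) and ITGB3 (0.0124 FPKM with LPA, listed at 0 in control) were low as well. ITGA4, which pairs with ITGB7 or ITGB1 on leukocytes, was at 0.0110 FPKM in the LPA library and listed at 0 in the control library. Neither library had a value above 0 for ITGA8 or LAMB4, and a listed 0 is no proof of absence. Of the laminin alpha chains of other tissues, LAMA1 was at 0.0180 FPKM with LPA and 0.00545 FPKM in control, and LAMA2, the chain of muscle, was at 0.542 FPKM with LPA and 0.615 FPKM in control. LAMA4, the chain of blood vessels, was at 0.780 FPKM in the LPA library and 0.270 FPKM in the control library, on about 71.6 fragments with LPA and 34.9 in control, summed over its isoforms. Part of the LAMA4 value in the LPA library, 0.193 FPKM, came from an isoform of 767 nt that was listed at 0 in the control library.

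Larger differences appeared when the genes were split into isoforms, as the table gives them, and the same held for all measured genes. Over all genes 1.45% were 1.5-fold higher and 1.54% lower, while for isoforms the shares were 9.48% and 8.67%. Of 25 measured isoforms of members, 3 passed 1.5-fold upward in LPA (of ITGA2, ITGA6 and LAMB3), against 9.48% of 16999 measured isoforms. Another 3 passed it downward (of ITGA2, ITGA6 and ITGB1), against 8.67%. Both counts are near the shares of all measured isoforms. ITGA2 and ITGA6 stand in both counts, since a shift within a gene of near-equal sum raises 1 isoform and lowers another. The table gives each isoform a lower and an upper FPKM bound, whose level the file does not state and which rest on no replicates. These bounds did not overlap for 2 of the 25 isoforms, both of ITGA2, 1 higher and 1 lower. Of all measured isoforms, 2.48% were 1.5-fold higher with separate bounds and 2.12% were 1.5-fold lower with separate bounds. Both ITGA2 isoforms belong to 1 split within a gene whose sum was 5.28 FPKM in the LPA library and 5.13 FPKM in the control library. The higher one, NM_002203, was listed at 0 in the control library and passed the filter only through the LPA library. Of the 6 members with at least 2 measured isoforms, 4 had an isoform whose share of the gene's FPKM differed by 20 percentage points or more, against 24% of 3667 such genes. The largest shift had a median of 22.3 points over the 6 members and 9.41 points over the 3667 genes. At 10 points the count was 5 of 6, against 48.2%. It was 1 of 6 at 30 points, against 12.4%, and 1 of 6 at 50 points, against 3.19%. The member past 30 and 50 points was ITGA2, which has 2 measured isoforms only through NM_002203. The limits were chosen after the values were seen.

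**Figure D4:**
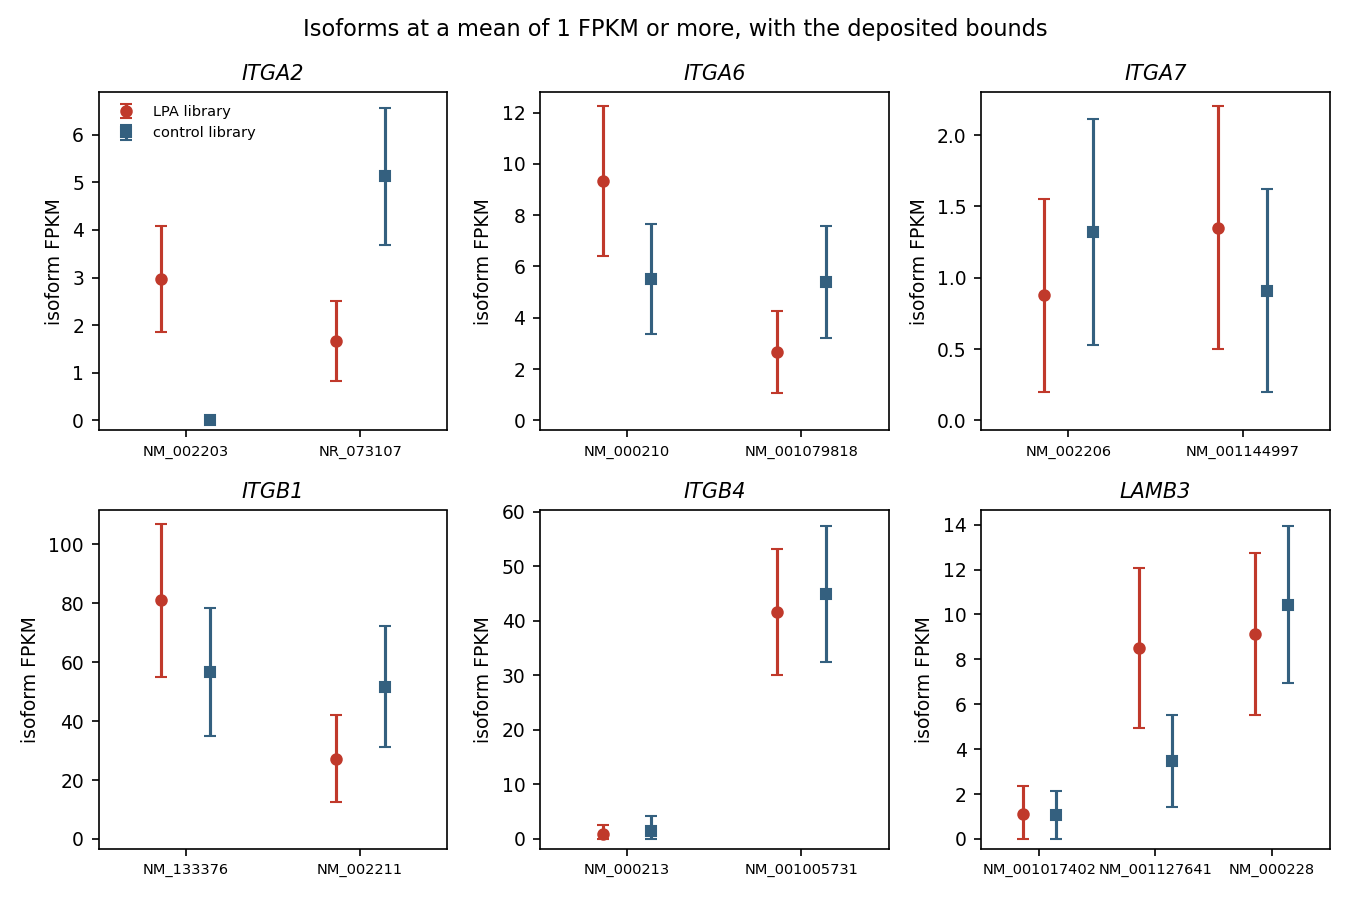
FPKM of the isoforms at a mean of 1 FPKM or more in the 6 members that have at least 2 of them. Circles are the LPA library, squares the control library, and bars run from the deposited lower to the deposited upper bound. The bars of both ITGA2 isoforms are separate between the libraries, and those of all the others overlap.

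In ITGA2 the gene's FPKM was nearly equal in both libraries, but the estimate was assigned to different transcripts. The protein-coding isoform NM_002203 had 2.97 FPKM (bounds 1.85 to 4.09) in the LPA library and was listed at 0 (upper bound 0.0162) in the control library. The isoform NR_073107, which RefSeq lists as non-coding, had 1.67 FPKM (bounds 0.822 to 2.51) in the LPA library and 5.12 FPKM (bounds 3.68 to 6.57) in the control library. Its share of the gene was 31.6% in the LPA library and 99.98% in the control library, a difference of -68.4 percentage points. Of genes with at least 2 measured isoforms, 98.9% had a smaller largest shift. ITGA2 is among these genes only through the LPA value of NM_002203. Another non-coding isoform, NR_073104, had 0.623 FPKM in the LPA library and 7.5e-05 FPKM in the control library. NM_002203 and NR_073107 differ by 121 nt, at lengths of 7869 and 7748 nt. Their split thus rests on the small part of the gene's fragments that tells them apart, and that part was not counted. The whole gene had about 662 fragments in the LPA library and 697 in the control library.

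NR_073107 is 121 nt shorter than NM_002203, and exon 2 is the only exon of the GENCODE counterpart of NM_002203 that has this length. In GENCODE 1 transcript of ITGA2 starts before exon 2 and has no exon that overlaps it. Whether that transcript joins exon 1 to exon 3 was not checked. The exon, chr5:53026748-53026868 on the plus strand of hg38, is shown first because its length is the difference between the isoforms, and the join of exon 1 to exon 3 follows it. The join takes the last 30 bases of exon 1 and the start of exon 3 (from 53042112 to 53042212). Capitals mark the first stop codon that is in frame with the start codon of ITGA2 after the join, which lies in exon 3 after 54 codons. Both sequences are from GENCODE release 29.
ITGA2 exon 2: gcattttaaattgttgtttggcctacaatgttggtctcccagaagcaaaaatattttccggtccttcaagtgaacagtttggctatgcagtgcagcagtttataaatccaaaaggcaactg
ITGA2 exon 1 joined to exon 3: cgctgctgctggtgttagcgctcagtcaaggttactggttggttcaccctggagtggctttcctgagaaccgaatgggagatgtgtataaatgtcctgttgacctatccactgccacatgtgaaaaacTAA
That NR_073107 lacks exon 2 was read from its length alone, since the deposited table holds no exon structure.

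ITGA6 showed the next largest shift, between its known cytoplasmic tail variants. The A variant uses an extra exon of 130 nt that holds its own stop codon, and the B variant skips that exon and reads into the last exon. In human intestine the A form is known from proliferating crypt cells and the B form from differentiated cells. The A form (NM_000210) had 9.33 FPKM (bounds 6.42 to 12.2) in the LPA library and 5.52 FPKM (bounds 3.37 to 7.67) in the control library. The B form (NM_001079818) had 2.66 FPKM (bounds 1.05 to 4.27) in the LPA library and 5.39 FPKM (bounds 3.23 to 7.56) in the control library. The A form thus held 77.8% of the gene's FPKM in the LPA library and 50.6% in the control library, a difference of 27.2 percentage points. Of genes with at least 2 measured isoforms, 85.4% had a smaller largest shift, and the bounds of each form overlapped between the libraries. The records of the A and B forms are 5810 and 5680 nt long. Their split thus rests on a small part of the gene's fragments, about 1113 in the LPA library and 1101 in the control library, and that part was not counted.

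The coding ends that set the ITGA6 forms apart are shown because they are what the isoform estimates tell apart in the protein. The tail of the A form comes from exon 25 of 26 (chr2:172501772-172501879, plus strand, hg38) and that of the B form from the last of 25 exons (chr2:172504091-172504252). Capitals mark the stop codon, and both sequences are from GENCODE release 29.
ITGA6 A tail: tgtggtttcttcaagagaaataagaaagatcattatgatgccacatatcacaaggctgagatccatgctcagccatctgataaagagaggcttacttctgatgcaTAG
ITGA6 B tail: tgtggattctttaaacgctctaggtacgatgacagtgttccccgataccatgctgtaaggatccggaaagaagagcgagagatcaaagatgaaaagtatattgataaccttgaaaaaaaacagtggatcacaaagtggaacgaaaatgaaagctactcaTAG
The GENCODE transcripts matched to these records code for 1073 codons in the A form and 1091 codons in the B form.

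ITGB1 and LAMB3 had shifts among isoforms that start at different first exons. For ITGB1, NM_133376 had 80.9 FPKM (bounds 55.1 to 106.7) in the LPA library and 56.7 FPKM (bounds 34.98 to 78.5) in the control library. NM_002211 had 27.3 FPKM (bounds 12.4 to 42.2) in the LPA library and 51.7 FPKM (bounds 31.3 to 72.2) in the control library, so that the gene's sum was nearly the same. The share of NM_133376 was 74.8% in the LPA library and 52.3% in the control library. Of genes with at least 2 measured isoforms, 79.6% had a smaller largest shift, and the bounds of each isoform overlapped between the libraries. The records of NM_133376 and NM_002211 are 3785 and 3870 nt long, and the part of the gene's fragments that tells them apart was not counted. Their GENCODE counterparts have the same coding length of 2394 nt and start at 32957894 and at 32958209 on the minus strand of chromosome 10, so this difference does not bear on the length of the protein. The muscle form of ITGB1 (NM_033668) was listed at 0 in both libraries.

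For LAMB3, NM_001127641 had 8.51 FPKM (bounds 4.96 to 12.1) in the LPA library and 3.47 FPKM (bounds 1.43 to 5.51) in the control library, with bounds that overlapped. NM_000228 had 9.14 FPKM (bounds 5.52 to 12.8) in the LPA library and 10.4 FPKM (bounds 6.95 to 13.9) in the control library. NM_001127641 was thus the only LAMB3 isoform above 1.5-fold, and its share was 45.4% in the LPA library and 23.2% in the control library. Of genes with at least 2 measured isoforms, 79.2% had a smaller largest shift. The records of NM_001127641 and NM_000228 are 4035 and 4061 nt long, and the part of the gene's fragments that tells them apart was not counted. The third isoform, NM_001017402, had 1.104 FPKM in the LPA library and 1.05 FPKM in the control library. All 3 GENCODE counterparts have a coding length of 3516 nt, and in the order given they start at 209652329, 209652466 and 209651334 on the minus strand of chromosome 1.

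Isoforms of the other measured members had share shifts of under 20 percentage points. In ITGB4, NM_001005731 held 97.9% of the gene's FPKM in the LPA library and 96.8% in the control library. ITGA3 was nearly all NM_002204, at 99.6% in the LPA library and 99.2% in the control library. In ITGA7, NM_001144997 held 60.6% in the LPA library and 40.8% in the control library, at levels near 1 FPKM and with wide, overlapping bounds. In ITGAV the leading isoform NM_001145000 held 71.0% in the LPA library and 68.5% in the control library. LAMA3 was mostly its short form NM_001127718, at 1.28 FPKM in the LPA library and 0.966 FPKM in the control library, and its long forms NM_001127717 and NM_198129 were at 0.0505 and 8.36e-05 FPKM in the LPA library and 0.0423 and 0.0193 FPKM in the control library. Its other short form, NM_000227, was listed at 0 in the LPA library and had 0.225 FPKM in the control library.

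RefSeq promoter windows, 250 bases before to 50 bases after a start, were at hand for 26 members, 13 of them measured, with 20 windows for the measured ones. They were searched on both strands for AP-1 (TGANTCA), TEAD (GGAATG), SP1 (GGGCGG) and CArG box motifs. A window was counted once per motif, and matches of different motifs may overlap. AP-1 letters stood in 3 of the 20 windows, of ITGA5, LAMA3 and LAMB3, against 7.71% of 35116 windows of all genes. TEAD letters stood in 2 of the 20, against 14%. SP1 letters stood in 16 of the 20, against 45%, and the CArG box in 0 of the 20, against 1.29%. The 20 windows are of measured members, several of them of the same gene. The 35116 windows are of genes measured or not, so these shares are not like against like. The LAMA3 and LAMB3 windows are shown because both genes code for chains of the hemidesmosomal laminin, each 250 bases before a start in the GRCh38.p14 build, with the AP-1 letters in capitals. The LAMA3 window is chr18:23872770-23873019 on the plus strand and the LAMB3 window is chr1:209651375-209651624 on the minus strand, next to the start (209651374) nearest to that of NM_001017402, the least abundant measured LAMB3 isoform.
LAMA3 promoter: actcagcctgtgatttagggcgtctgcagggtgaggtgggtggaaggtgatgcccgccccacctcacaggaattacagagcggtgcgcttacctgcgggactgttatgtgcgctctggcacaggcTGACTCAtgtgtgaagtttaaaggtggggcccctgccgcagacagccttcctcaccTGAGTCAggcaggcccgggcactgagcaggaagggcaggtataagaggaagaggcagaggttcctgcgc
LAMB3 promoter: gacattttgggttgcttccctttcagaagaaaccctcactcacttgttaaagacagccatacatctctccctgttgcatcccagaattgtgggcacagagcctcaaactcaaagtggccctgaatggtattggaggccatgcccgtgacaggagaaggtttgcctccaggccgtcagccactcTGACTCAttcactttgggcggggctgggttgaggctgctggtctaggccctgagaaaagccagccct
A match is a description of the letters only.

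Genes that work with integrins and laminins were set beside them, in lists drawn up by function. Of the 65 measured genes in 5 lists, 58.5% had a ratio above 0, against 50.2% of all measured genes. Past 0.32 in size 6.15% were higher and 9.23% lower, against 8.19% and 10.4%, and past 1.5-fold none was higher and 1.54% (1 gene) lower, against 1.45% and 1.54%. The shares past the fold limits were near those of all measured genes. Of 27 measured cytoplasmic adaptors, which connect integrin tails to actin, 19 had positive log2 ratios, and the list's median was 0.05. Past the wider limit of 0.32, 1 was higher and 1 was lower, the lower one being the adaptor gene CRK (14.2 FPKM in the LPA library and 18.3 FPKM in the control library). The most abundant of them was ACTN4, an alpha-actinin gene, at 116.6 FPKM in the LPA library and 111.4 FPKM in the control library.

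Partners of integrins in hemidesmosomes and tetraspanin webs had a median of 0.15 over 9 measured genes, 7 of which had a ratio above 0, with 1 higher and 2 lower past that limit. CD151, the tetraspanin that binds integrins of ITGA3 and ITGA6, had 283.6 FPKM in the LPA library and 221.3 FPKM in the control library. CD9, another tetraspanin gene, was lower, at 293.8 FPKM in the LPA library and 376.9 FPKM in the control library. CD82, a tetraspanin gene known as a metastasis suppressor, was the 1 gene of these lists at 1.5-fold, at 3.70 FPKM in the LPA library and 6.10 FPKM in the control library (log2 ratio -0.60).

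Of 9 other measured laminin receptors, 6 had a ratio above 0, with a median of 0.10. MCAM, a receptor of the immunoglobulin family, was higher by more than that limit, at 9.99 FPKM in the LPA library and 7.35 FPKM in the control library. RPSA, also a ribosomal protein gene with many pseudogenes, was the most abundant, at 3465 FPKM in the LPA library and 3515 FPKM in the control library. Among matrix ligands 12 of 28 genes in the table were measured and 4 of those had a ratio above 0, with a median of -0.09. The collagen gene COL1A1 was lower by more than that limit, at 4.28 FPKM in the LPA library and 5.75 FPKM in the control library, and TGFB1 was the most abundant (28.8 FPKM with LPA, 30.1 FPKM in control). The network collagen genes COL4A1 (0.0450 FPKM with LPA, 0.0566 FPKM in control) and COL4A2 (0.0369 FPKM with LPA, 0.00793 FPKM in control), which form basement membranes together with laminins, were far below the measured laminins in level, while COL4A5 had 1.57 FPKM in the LPA library and 1.80 FPKM in the control library.

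Of 8 measured genes of laminin processing and remodelling, 2 had a ratio above 0, with a median of -0.16. The membrane serine protease gene ST14 was higher, at 79.5 FPKM in the LPA library and 59.2 FPKM in the control library. The urokinase gene PLAU (18.4 FPKM with LPA, 23.8 FPKM in control) and the membrane metalloprotease gene MMP14 (3.90 FPKM with LPA, 5.22 FPKM in control) were lower. These 2 lists of ligands and proteases had medians below 0. The integrins and laminins together and the 3 lists of receptors and adaptors had medians above 0, while the integrin beta genes alone had -0.0031. All these medians lay between the 25 and 75 percentiles of the ratios of all measured genes, -0.17 and 0.16. The difference between lists was not tested.

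**Figure D5:**
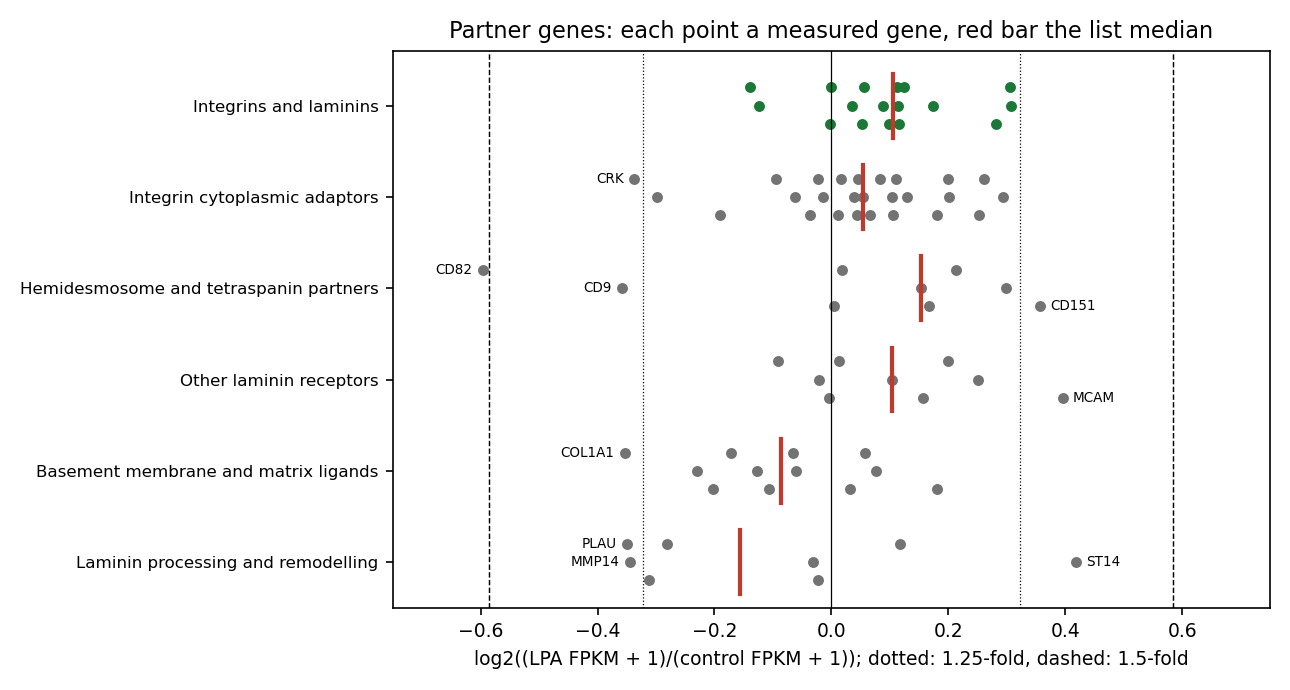
Log2 ratios of measured integrins and laminins and of measured genes in 5 partner lists. Each point is a gene, red bars are medians of the full lists, dotted lines mark a log2 ratio of 0.32 in size and dashed lines 1.5-fold, and plotted genes past the dotted lines are named. CD82 is the only point past a dashed line, at -0.60.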

How the data were processed

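Poly-A libraries were compared, 1 of LPA-treated and 1 of control HCT-116 cells, grouped by title. Reads were handled with TopHat2 2.0.12, Cufflinks, Cuffdiff 2.2.0 and, for base calls, bcl2fastq 2.16.0.10, on hg38, per the submitters' processing notes. Settings and scaling between libraries were not given in the sources used here. What the authors deposited is FPKM per isoform with a lower and an upper bound, per the file headers, for 63236 isoforms.

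Isoforms that the table marks HIDATA (16, none of a member) were left out, as no estimate stands behind them; 11 marked FAIL stayed in the gene sums. Isoform FPKM were summed per gene symbol. Ratios used a pseudocount of 1 FPKM and genes with a mean of at least 1 FPKM. Isoforms were compared where both libraries had the status OK. With 1 library per group nothing was tested, and a fold limit of 1.5 was set beside its share over all measured genes. Measured members are named, except 1 that is not reported here, and the others by role. Figures leave out that gene and 1 partner gene, while counts and medians hold them. Loci are those of the table, with 1-based starts. The gene-level calls were checked on simulated data with changes well past 1.5-fold, and the isoform shares were not checked in this way. Alternatives were other pseudocounts, filters, scalings and limits, HIDATA isoforms kept, and the leading isoform for the gene. A further alternative, an adjustment for GC content and length, was added after seeing the data. For it 95.4% of measured genes had a value. Members and lists were chosen with earlier results of these data known. Python 3.11.15, pandas 2.3.3 and numpy 2.4.6 were used. Depth was estimated from FPKM, and estimates cover counting error only.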

Additional observations from a re-analysis of the deposited data

How the results depend on the processing

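The median log2 ratio of the measured members stayed above 0 in all 9 alternatives, between 0.04 and 0.13, and so did those of the integrin alpha genes (0.04 to 0.17) and the laminin genes (0.03 to 0.19). Keeping HIDATA isoforms changed no member, and another pseudocount cannot turn the sign of a ratio. These alternatives therefore could not have taken the medians below 0. The median of the integrin beta genes changed sign between alternatives, from -0.03 with upper-quartile scaling to 0.09 with the leading isoform. Letting the leading isoform stand for the gene changed most: 1 member was then 1.5-fold higher (ITGA6, log2 ratio 0.66) and 1 lower (ITGA2, -1.199), and LAMB3 had -0.17 and ITGB1 0.50. The shares of the family sums in the LPA and control libraries then became 65.2% and 62.4% for ITGA3, 55.4% and 46.0% for ITGB1, 28.5% and 36.5% for ITGB4, 87.4% and 90.1% for LAMA5, and 31.8% and 33.6% for LAMB3. By construction this setting leaves out the other isoforms. With a limit of 0.32 in log2 ratio 1 member was higher. With isoforms at a mean of at least 5 FPKM, 2 member isoforms were 1.5-fold higher and 1 was 1.5-fold lower. After adjustment for GC content and length, LAMB3 and ITGA3 had 0.23, LAMC1 0.22 and ITGB1 0.11, and the ratios of LAMA5, LAMC3 and ITGA7 were below 0 (-0.0015, -0.0043 and -0.07). In all, 9 of 158 member ratios in the alternatives had another sign. All of these came from the leading isoform, centring on the median of all measured genes, upper-quartile scaling or the adjustment. Other pseudocounts, other filters and keeping HIDATA isoforms cannot turn the sign of a member's ratio. Many of the 158 ratios therefore could not change sign. At limits of 10 and 30 percentage points, 5 members and 1 member had an isoform share shift. No paired analysis was possible because the groups share only 1 number in their titles and each has 1 library, and for the same reason no replicate could be left out.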
